A study of Mus musculus with 96 samples.

Results

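The 3 chains of the complement protein C1q, C1qa, C1qb and C1qc, were taken by gene symbol from a count table of 35486 genes. The rule that names them uses no measured value, but they were chosen with earlier results of these data known. All 3 genes passed the filter on low counts in every fit. Each chain was read as CPM (its counts divided by the library's total count and multiplied by 1000000) in 96 RNA-seq libraries of mouse brain, and the ratios of counts between the chains were formed within each library. The study asked what blood plasma of young mice does to the brain of aged mice, region by region. All mice were male C57BL/6J, and the first experiment gave 29 mice with cerebellum, cortex and hippocampus sequenced from each. Its 8 groups were mice left untreated (called naive), 4 aged 2 months and 3 aged 18 months, mice given 7 days of PBS at 18 months (4) or 22 months (3), mice given 7 days of young plasma at 18 months (5) or 22 months (3), and mice of 19 months given 24 days of PBS (4, called long PBS here) or of young plasma (3, called long plasma). A second experiment added the hippocampus of 9 mice of 18 months, 4 given PBS and 5 given plasma. The sample labels give the youngest mice as 2 months old, whereas the design text gives 3 months; the label's age is used here.

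C1q is the recognition molecule of the classical complement pathway. Its A, B and C chains, each with a collagen-like stem and a globular head, come together in equal numbers, and the finished protein carries the proteases C1r and C1s, which cleave C4 and C2 and so lead to the cleavage of C3. In the brain C1q is made chiefly by microglia, and it is known for marking synapses for removal and for building up in aged tissue.

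The 3 genes lie side by side on the minus strand of chromosome 4 within 18675 bases (GRCm38, GENCODE annotation). C1qb (ENSMUSG00000036905) spans chr4:136880129-136886187, C1qc (ENSMUSG00000036896) spans chr4:136889804-136893065, and C1qa (ENSMUSG00000036887) spans chr4:136895917-136898803. The gap between C1qb and C1qc is 3616 bases and that between C1qc and C1qa is 2851 bases. Because the chains moved together in the cerebellum, the sequences before the RefSeq start sites of C1qb and C1qc are shown (RefSeq, GRCm38.p6, minus strand, 5′ to 3′), at chr4:136886201-136886450 and chr4:136893066-136893164. The C1qc window of 250 bases is shown only where it lies outside the GENCODE gene. Capitals mark a match to GAGGAA, the core of sites bound by the Ets factor PU.1, a regulator of microglial genes encoded by Spi1, on either strand.
C1qb: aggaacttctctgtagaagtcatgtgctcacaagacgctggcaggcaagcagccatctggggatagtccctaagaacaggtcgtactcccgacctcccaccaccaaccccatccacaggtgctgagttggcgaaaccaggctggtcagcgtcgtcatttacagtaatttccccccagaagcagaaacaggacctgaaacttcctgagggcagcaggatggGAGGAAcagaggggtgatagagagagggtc
C1qc: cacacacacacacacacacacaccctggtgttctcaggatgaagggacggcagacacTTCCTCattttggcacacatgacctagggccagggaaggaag
The match lies 30 to 25 bases before the C1qb start on the gene's strand, and 193 to 188 bases before the C1qc start on the opposite strand, where it reads as its reverse complement. GAGGAA occurred in 23.3% of 32851 RefSeq promoter windows of 250 bases. The AP-1 core TGANTCA had no match in either window and occurred in 6.75% of all windows. Both strands were searched, no match to one motif overlapped one to the other, and a match is a description of letters, not of binding.

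Total counts ran from 851288 to 23768385 per library, with a median of 8889509, and 7 libraries held fewer than 2500000 counts. In 11 libraries the neuronal marker genes of the labelled region lay far below the other libraries of that region (more than 3 median absolute deviations). The edgeR fits of the first experiment were therefore also run without them. The ratios, the shares of microglial markers, the correlations and the fit of the second experiment were not. Gabra6, a marker of cerebellar granule neurons, had a median of 0 CPM in cortex and hippocampus. Microglial markers were read in every library, and markers of other cells that can make C1q had lower sums. The summed CPM of 7 border macrophage genes ran from 2.91 to 10.2 in cerebellum, 3.91 to 10.5 in cortex and 2.45 to 14.7 in hippocampus. For 12 homeostatic microglia genes it ran from 148 to 261, 341 to 531 and 366 to 584. For 6 monocyte and neutrophil genes it reached 7.51, 2.06 and 8.03. These sums cover different genes and do not show which cells made C1q. Of 6 monocyte and neutrophil genes, Plac8 had a median of 0 in the cerebellum, Ly6c2 and Plac8 in the hippocampus, and Ly6c2, S100a9, Plac8 and Ngp in the cortex. The libraries are bulk tissue, so more RNA of a chain per microglial cell and more microglial cells cannot be told apart from the CPM alone.

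C1qb had the most counts of the 3 chains in 95 of 96 libraries. The exception was the cerebellum of long PBS mouse 24, with 181 counts of C1qa and 177 of C1qb. Levels of different genes are compared here per kilobase of exon, using the GENCODE exon lengths of 1040 bases for C1qa, 1088 for C1qb and 1931 for C1qc. On that scale C1qb was highest in 95 of 96 libraries and C1qc lowest in 96 of 96. The rank of C1qc depends on the exon length used, which joins 2 transcripts for C1qc and covers 1 for each other chain. By counts alone C1qa exceeded C1qc in 46 of 96 libraries. In the cerebellum the median level over 29 libraries was 34.8 CPM per kilobase for C1qb, 25.2 for C1qa and 12.5 for C1qc. In the cortex the medians were 51.1, 34.3 and 20.1, and in the hippocampus of the first experiment 59.0, 39.7 and 21.3. The order of the chains was thus the same in the 3 regions.

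The cerebellum had the lowest levels of every chain. The summed CPM of the 12 homeostatic microglia genes was lowest there too, with medians over all libraries of 221 in cerebellum, 425 in cortex and 490 in hippocampus. As a mean share of that sum, every chain was highest in the cerebellum in naive 18-month mice, and only C1qb was in naive 2-month mice. The part of microglial content in the region differences was not tested. In the fit of all 87 libraries of the first experiment, with the 8 groups weighted equally, C1qa was 1.58-fold, C1qb 1.73-fold and C1qc 1.82-fold higher in cortex than in cerebellum. In hippocampus against cerebellum the folds were 1.79, 1.92 and 1.90. Hippocampus against cortex differed less, by 0.18 ± 0.04 on the log2 scale (SE) for C1qa and 0.15 ± 0.04 for C1qb, with edgeR quasi-likelihood adjusted p-values of 0.000219 and 0.000281. C1qc did not pass there (0.06 ± 0.05, adjusted p = 0.276 by edgeR). All other region differences of the chains passed, but so did most genes: 83.3% of 19490 genes tested differed between cortex and cerebellum, 84.1% between hippocampus and cerebellum and 60.3% between hippocampus and cortex. The same 29 mice gave all 3 regions.

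**Figure D1:**
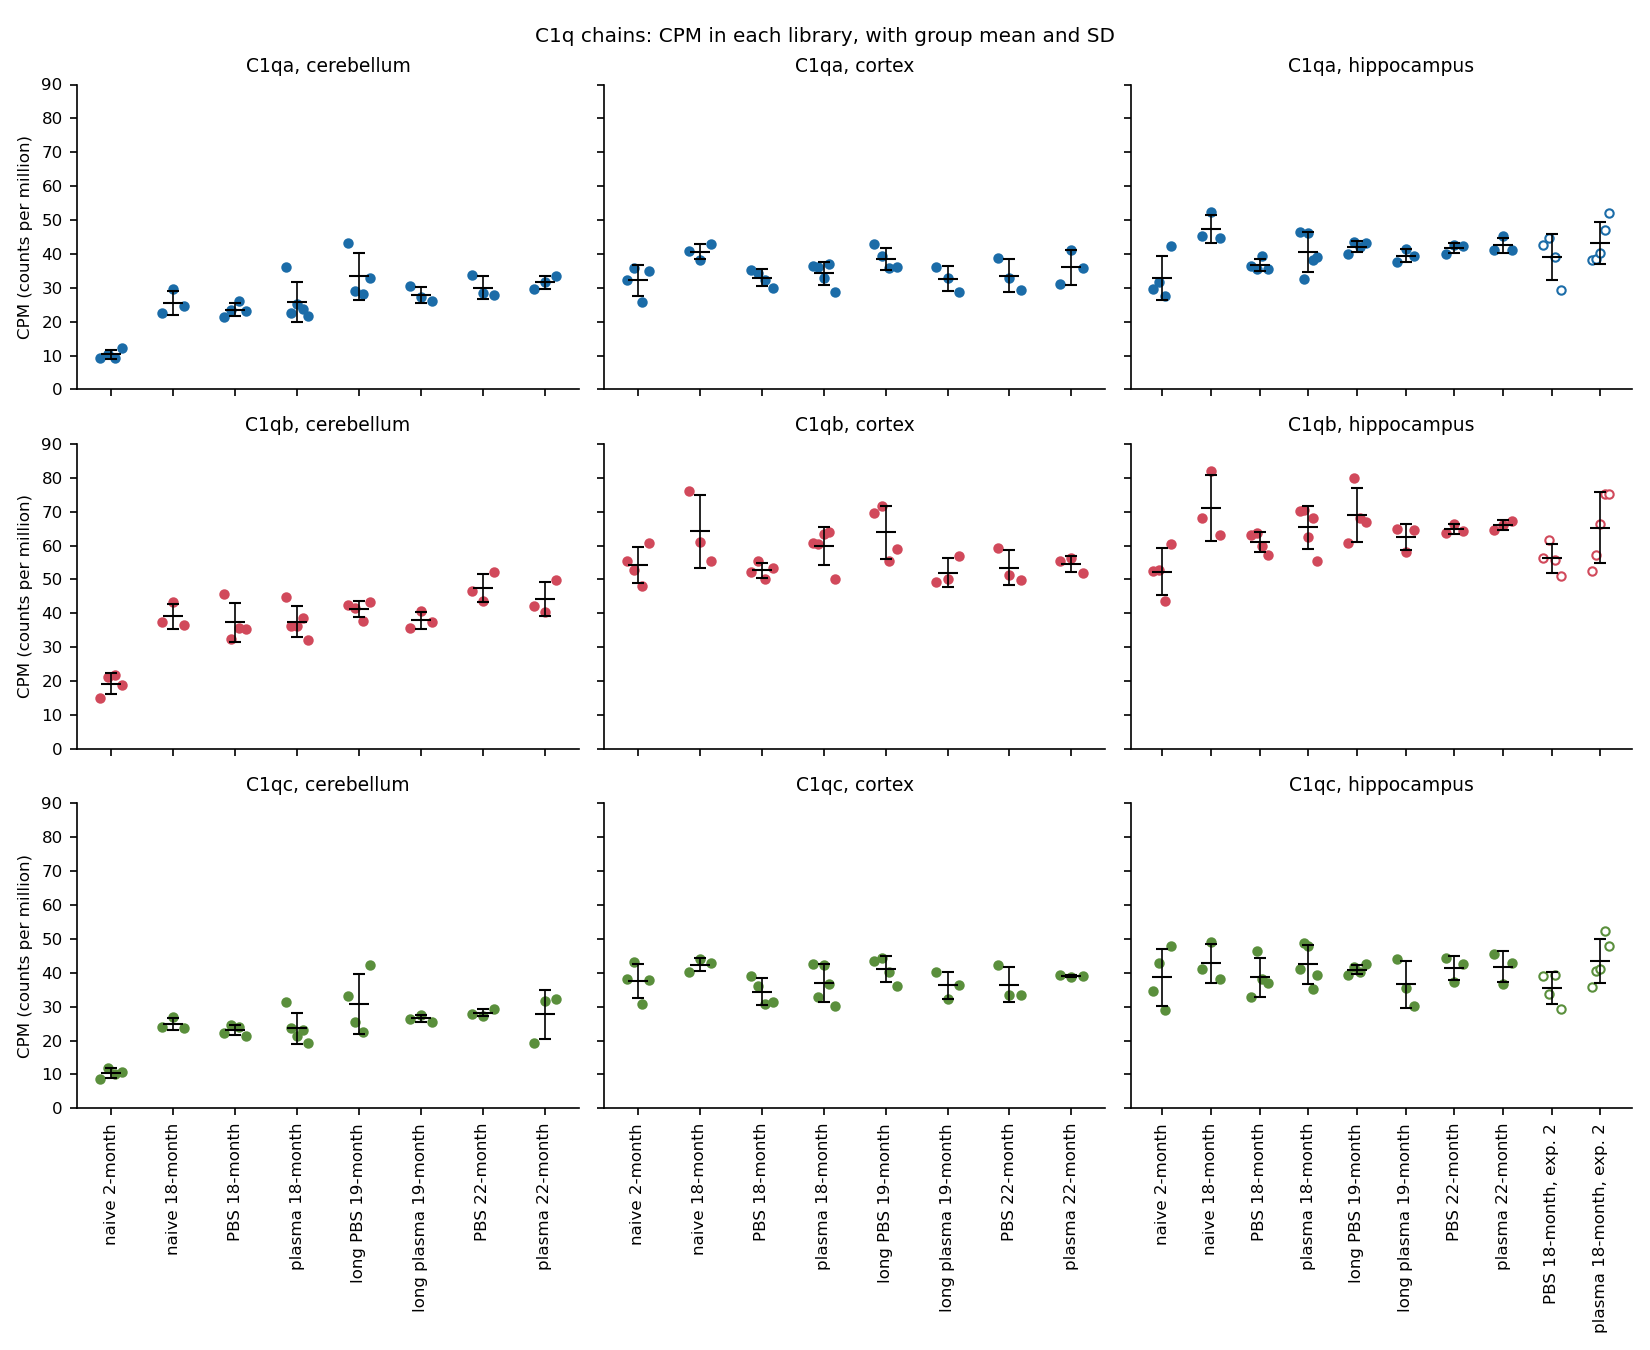
CPM of each chain (rows) in each library (points) by group (x axis) and region (columns), with the group mean and SD as bars; open points are the second experiment. In the cerebellum the 4 naive 2-month libraries lie below all 25 others for every chain, whereas in cortex and hippocampus libraries of other groups lie below the highest naive 2-month library for every chain.

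Age had its largest measured effect on the chains in the cerebellum. C1qa there was 9.25, 10.4, 9.35 and 12.3 CPM in the 4 naive mice of 2 months and 22.7, 29.6 and 24.5 CPM in the 3 naive mice of 18 months. C1qb was 15.0, 21.3, 21.7 and 18.9 CPM at 2 months and 37.5, 43.4 and 36.5 CPM at 18 months. C1qc was 8.70, 12.0, 10.2 and 10.8 CPM at 2 months and 24.1, 27.0 and 23.7 CPM at 18 months. For each chain every 18-month library lay above every 2-month library, as was the case for 8.59% of 17185 genes. The log2 changes were 1.29 ± 0.17 (SE) for C1qa, 1.02 ± 0.12 for C1qb and 1.24 ± 0.16 for C1qc, that is 2.45-fold, 2.03-fold and 2.36-fold, with edgeR adjusted p-values of 2.27e-05, 4.07e-06 and 2.27e-05. All 3 chains were thus called higher, beside 1.33% of those genes. The counts behind these values ran from 34 to 117 per chain and library at 2 months and from 119 to 369 at 18 months. Every naive library of 18 months carries one number in its title and every naive library of 2 months another; the labels do not say what that number marks, and it cannot be told apart from age.

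Choroid plexus RNA differed between some of these cerebellum libraries. Ttr, the transthyretin gene that the choroid plexus transcribes strongly, was at 985 to 1394 CPM in the 3 older libraries and at 4.71, 981, 12.1 and 315 CPM in the younger ones. The 2-month library with 981 CPM of Ttr had 10.4 CPM of C1qa, 21.3 CPM of C1qb and 12.0 CPM of C1qc, all far below the 18-month libraries. All 6 choroid plexus genes had positive changes in the cerebellum, with a median of 1.12, and none was called. The part of that RNA in the result was not tested. The summed border macrophage genes were 3.57 to 9.07 CPM at 18 months and 4.67 to 10.2 CPM at 2 months, which overlap.

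In the cortex the same mice showed smaller differences and no call. C1qa was 32.3, 35.8, 25.7 and 34.98 CPM at 2 months and 40.8, 38.3 and 42.9 CPM at 18 months, so the groups did not overlap, as was the case for 3.53% of 18769 genes in that direction. Its log2 change was 0.31 ± 0.12 (SE, edgeR adjusted p = 0.681). C1qb ran from 48.1 to 60.8 CPM at 2 months and from 55.4 to 76.0 CPM at 18 months, and C1qc from 30.9 to 43.3 and from 40.2 to 44.1 CPM. Both overlapped between the ages, with log2 changes of 0.20 ± 0.11 and 0.17 ± 0.13 (edgeR adjusted p = 0.848 and 0.937). Only 0.112% of the genes tested in the cortex were called in either direction.

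In the hippocampus only C1qa was called, and no ratio between the chains passed its adjusted test with age. C1qa was 29.8, 31.8, 27.6 and 42.4 CPM at 2 months and 45.4, 52.2 and 44.8 CPM at 18 months, with no overlap, and C1qb was 52.5, 52.8, 43.5 and 60.6 CPM against 68.1, 82.0 and 63.3 CPM, also with no overlap. Such groups, apart and higher, made up 4.52% of 18070 genes. C1qc overlapped, at 34.8, 42.9, 29.0 and 47.9 CPM against 41.1, 49.1 and 38.1 CPM. C1qa was called (log2 change 0.54 ± 0.11, 1.46-fold, edgeR adjusted p = 0.0367), one of the 0.0664% of these genes called higher. C1qb (0.43 ± 0.11, adjusted p = 0.228) and C1qc (0.14 ± 0.15, adjusted p = 0.978) were not called by edgeR. The call of C1qa rests on the particular libraries: leaving out any single naive hippocampus library other than that of the 2-month mouse 20 ended it, with edgeR adjusted p-values of 0.0852 to 0.424 and log2 changes of 0.47 to 0.60 (mice 3, 6 and 9 at 18 months, and 12, 14 and 17 at 2 months). A fit of the 2 naive groups alone gave an adjusted p of 1.00, and a fit without the filter on low counts gave 0.0574.

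The difference between regions was tested directly as an interaction in the fit of all 87 libraries. The log2 age change in cortex minus that in cerebellum was -0.99 ± 0.20 (SE) for C1qa, -0.82 ± 0.16 for C1qb and -1.07 ± 0.22 for C1qc (edgeR adjusted p = 0.0182, 0.0182 and 0.0267). These 3 were among the 0.041% of 19490 genes called lower. Hippocampus minus cerebellum was called for C1qc (-1.10 ± 0.22, adjusted p = 0.0163), where 0.0462% of genes were called lower, and not for C1qa (-0.74 ± 0.20, 0.23) or C1qb (-0.59 ± 0.16, 0.258) by edgeR. Hippocampus minus cortex gave 0.25, 0.23 and -0.02 for C1qa, C1qb and C1qc, and edgeR and DESeq2 called none of 19490 genes (889 had an unadjusted edgeR p under 0.05).

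The direction of these 4 called interactions held when single libraries were left out, but the calls did not all hold. For C1qa in cortex minus cerebellum the adjusted p rose to between 0.0509 and 0.233 without the cerebellum of mouse 6, 12, 14 or 17 or the cortex of mouse 6, 9, 14 or 20. For C1qb the call ended without the cerebellum of mouse 6 or 12 or the cortex of mouse 6, 9 or 20 (0.0570 to 0.197). For C1qc it ended without the cerebellum of mouse 6, 12 or 17 or the cortex of mouse 3, 6, 9, 14 or 20 (0.0509 to 0.197). C1qc in hippocampus minus cerebellum lost its call without the cerebellum of mouse 6 or 12 or the hippocampus of mouse 3, 9 or 14 (0.0512 to 0.198), and without all libraries of low regional markers (-0.86, adjusted p = 0.115).

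Other microglial genes rose in the same cerebellum libraries, where 1.33% of all genes tested were called higher. Of 12 genes expressed by microglia and macrophages alike, edgeR called 7 higher and none lower, and the list's median log2 change was 0.99 against 0.01 over all genes tested. Ctss, which encodes the lysosomal protease cathepsin S, changed by 1.43 ± 0.15, from 17.0 ± 2.08 to 45.8 ± 5.47 CPM (mean ± SD, n = 4 and 3). Trem2, a lipid-sensing receptor, changed by 1.30 ± 0.27, its adaptor Tyrobp by 1.28 ± 0.28 and the lysosomal membrane gene Laptm5 by 0.84 ± 0.14. Without the 18-month mouse 6, Trem2 and Tyrobp did not pass (edgeR adjusted p = 0.0730 and 0.0873). Among the 7 were also the transcription factor gene Irf8 and the lysosomal gene Cd68. Irf8 was not called by DESeq2 (adjusted p = 0.0776), by edgeR in the naive groups alone (0.0716), without low depth (0.0523) or without mouse 6, 9, 12, 14 or 20 (0.0671 to 0.341). Cd68 lost its edgeR call without mouse 6 or 12 (adjusted p = 0.261 and 0.0511). Of 12 homeostatic microglia genes, with a median log2 change of 0.52, edgeR called 3 higher and none lower, among them the microglial membrane protein Tmem119 (0.85 ± 0.21) and the fractalkine receptor Cx3cr1 (0.70 ± 0.12). The call of Tmem119 ended without mouse 9, 12 or 14 (adjusted p = 0.0592 to 0.101 by edgeR). The purinergic receptor P2ry12 (0.20 ± 0.13, adjusted p = 0.562) and Spi1 (0.31 ± 0.49, adjusted p = 0.85) were not called by edgeR. In the cortex none of these 24 genes was called, with list medians of 0.19 and -0.12, and Cx3cr1, Tmem119 and P2ry12 were at -0.15, -0.16 and -0.02. In the hippocampus the medians were 0.34 and 0.22, and edgeR called 1 gene of each list, beside 0.0664% of all genes tested called higher. For Ctss (0.77 ± 0.13) the call did not hold in the fit of the naive groups alone (edgeR adjusted p = 0.267), and it ended without mouse 3, 6 or 14 (edgeR adjusted p = 0.0503 to 0.120).

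Set against the summed CPM of the 12 homeostatic microglia genes of the same library, the chains were higher at 18 months in the cerebellum. C1qa was 11.6% ± 1.499 of that sum at 18 months and 6.70% ± 0.745 at 2 months (SD, n = 3 and 4). C1qb was 17.8% ± 1.73 against 12.5% ± 2.22, and C1qc 11.3% ± 0.83 against 6.78% ± 1.02. No values overlapped between the ages, and how many other genes would do so on this scale was not computed. The exact permutation test gave its smallest possible p, 0.0286 of 35 regroupings, for each chain (two-sided, 0.0643 after Benjamini-Hochberg adjustment over 9 tests). No chain thus passed the adjusted test. In these libraries the homeostatic list had a lower median log2 change with age than the genes shared by microglia and macrophages. Shares of a sum over those shared genes were not computed, so how far the result depends on the list was not tested. In the cortex C1qa was at 9.23% ± 1.04 against 6.79% ± 0.896 (the same exact p), and C1qb and C1qc overlapped or met (exact p = 0.0857 each). In the hippocampus C1qc stood at 7.67% ± 0.839 at 18 months and 8.22% ± 1.40 at 2 months (exact p = 0.629).

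**Figure D2:**
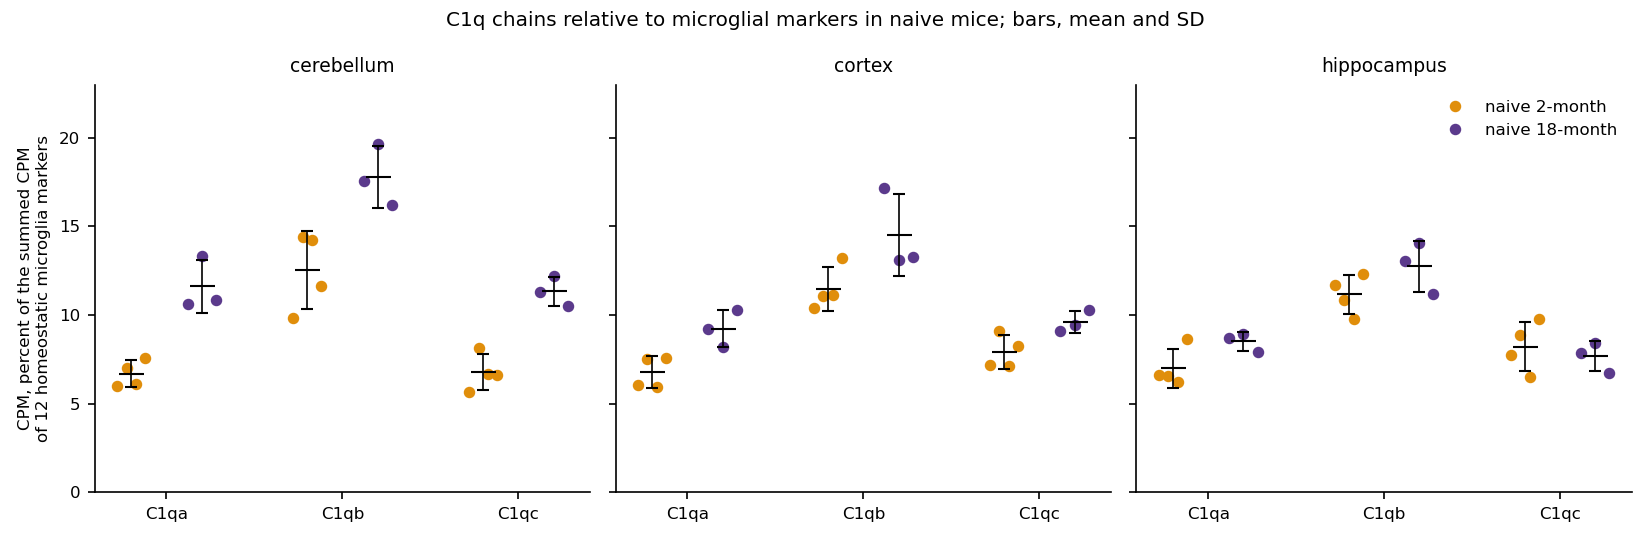
CPM of each chain as a percent of the summed CPM of 12 homeostatic microglia genes in each naive library (points), by region, with mean and SD as bars. In the cerebellum the 18-month libraries lie above the 2-month libraries for every chain, for example 10.6% to 13.4% against 6.03% to 7.59% for C1qa.

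Downstream complement genes were read beside the chains in the naive cerebellum, where 1.33% of all genes tested were called higher. Of 6 proteases and substrates of the classical and lectin pathways that could be tested, with a median log2 change of 1.45, edgeR called 2 higher. C4b, the complement component cleaved by C1s, changed by 2.13 ± 0.16 on the log2 scale (SE), from 9.16 ± 2.22 to 40.8 ± 2.89 CPM, and C3, on which the complement pathways converge, by 3.00 ± 0.82, from 0.401 ± 0.391 to 3.39 ± 1.04 CPM. Few counts stand behind C3: its call ended without any 1 of the 7 libraries (edgeR adjusted p = 0.0519 to 0.224) and without the libraries of low depth (0.0533). C1ra, the gene of C1r, was at 0.256 and 1.10 CPM (1.94 ± 0.73, edgeR adjusted p = 0.173), and C1s1 did not reach the count filter there. Of 12 complement inhibitors tested, with a median of 0.05, edgeR called 2 higher: Cd46, a membrane regulator (0.82 ± 0.13), and Serping1, which inactivates C1r and C1s (0.56 ± 0.13). Serping1 lost its call without mouse 6, 9, 12 or 20 (adjusted p = 0.0554 to 0.0650 by edgeR). Of 10 receptors and C1q binding proteins, with a median of 0.27, 1 was called, Itgb2, the beta chain of complement receptor 3 (1.43 ± 0.27), named here after its value was seen. C1qbp, Calr and Lrp1, which encode proteins reported to bind C1q, were at -0.08, 0.05 and 0.10.

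In the hippocampus C4b was the one gene called of 8 proteases and substrates, at 25.1 ± 9.00 CPM at 2 months and 129 ± 38.8 CPM at 18 months (log2 change 2.30 ± 0.24), though not in the fit of the naive groups alone (edgeR adjusted p = 0.0862). Of all genes tested there, 0.0664% were called higher. C3 was at 0.501 and 5.42 CPM (4.05 ± 0.96, adjusted p = 0.184 by edgeR and 0.0233 by DESeq2), and C1ra and C1s1 changed by 0.11 and 0.25. In the cortex no complement gene was called by edgeR, and C4b was at 9.62 ± 3.41 and 26.8 ± 8.07 CPM (1.47 ± 0.43, adjusted p = 0.351). Like C4b, the 3 chains had positive values in all 3 regions. Counting reads cannot fully separate C4b from its near-identical copy C4a.

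Across the groups of the cerebellum the mean of C1qa was 10.3 ± 1.42 CPM (SD) in naive 2-month mice, then 23.6 ± 2.02 in PBS 18-month, 25.6 ± 3.55 in naive 18-month, 25.9 ± 5.91 in plasma 18-month, 28.0 ± 2.36 in long plasma, 30.0 ± 3.35 in PBS 22-month, 31.6 ± 1.91 in plasma 22-month and 33.4 ± 6.91 in long PBS mice. Between neighbours in that order, only the step from 2 months to the next group was larger than the SDs of both groups. The same held for C1qb, from 19.3 ± 3.06 to 37.4 ± 5.72 CPM and then up to 47.4 ± 4.22 in PBS 22-month mice, and for C1qc, from 10.4 ± 1.38 to 23.1 ± 1.52 and then up to 30.8 ± 8.82 in long PBS mice. In the cortex the group means of C1qa ran from 32.2 to 40.7 CPM, of C1qb from 52.1 to 64.2 and of C1qc from 34.4 to 42.4, each highest in naive 18-month mice. In the hippocampus they ran from 32.9 to 47.5, from 52.3 to 71.1 and from 35.4 to 43.6 CPM. By the same measure neighbouring group means in cortex and hippocampus did not stand apart, with 1 exception: C1qb in PBS 18-month mice of the second experiment (56.2 ± 4.25 CPM) and of the first (61.0 ± 2.95 CPM).

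Between 18 and 22 months, in PBS mice, no chain was called in any region. The PBS groups of 18 and 22 months shared no title number, so age cannot be told apart from it. In the cerebellum C1qa was 21.4, 23.5, 26.2 and 23.2 CPM at 18 months and 27.8, 33.8 and 28.4 CPM at 22 months, and C1qc was 22.3, 24.7, 23.9 and 21.3 CPM against 29.4, 27.9 and 27.3 CPM. Neither overlapped, as was the case for 8.93% of 17185 genes in that direction. C1qb was 45.6, 32.5, 35.8 and 35.5 CPM against 52.1, 46.5 and 43.8 CPM, overlapping through PBS mouse 2, whose library holds 1029695 counts. The log2 changes were 0.32 ± 0.15, 0.38 ± 0.11 and 0.26 ± 0.14 for C1qa, C1qb and C1qc (SE, edgeR adjusted p = 0.288, 0.0977 and 0.392), and 0.157% of genes were called. C1qb passed in 2 other fits, without the count filter (adjusted p = 0.0428) and with the PBS groups of 18 and 22 months alone (0.0276).

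In the cortex the changes from 18 to 22 months were -0.02, -0.0032 and 0.04, and in the hippocampus 0.22, 0.13 and 0.13. Of the 9 values 7 were positive. C1qa in the hippocampus did not overlap, at 36.5, 35.7, 39.4 and 35.5 CPM at 18 months and 42.4, 40.1 and 42.6 CPM at 22 months, as was the case for 4.22% of genes there in that direction. The genes called there numbered 1 in the cortex (0.00533%) and 0 in the hippocampus, where 1419 of 18070 genes had an unadjusted edgeR p under 0.05 and DESeq2 called 1. The difference between regions in this change, tested after the data had been seen, was called by edgeR for no chain (C1qb, cortex minus cerebellum, -0.39 ± 0.15, adjusted p = 0.479). Of 19490 genes, 0.0103% were called in cortex minus cerebellum, 0.718% in hippocampus minus cerebellum and 0.626% in hippocampus minus cortex.

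PBS mice of 18 months were also compared with naive mice of the same age. All 9 values were negative, from -0.37 to -0.12 on the log2 scale, and none was called. The PBS and naive groups shared no title number, so the injections cannot be told apart from it. The largest was that of C1qa in the hippocampus, at 36.5, 35.7, 39.4 and 35.5 CPM in PBS mice against 45.4, 52.2 and 44.8 CPM in naive mice, which do not overlap (-0.37 ± 0.11, edgeR adjusted p = 1). C1qa and C1qc in the cortex did not overlap either, at 29.8 to 35.3 against 38.3 to 42.9 CPM and at 30.9 to 39.2 against 40.2 to 44.1 CPM. Groups that did not overlap in that direction made up 3.85% of genes in the hippocampus and 2.37% in the cortex. EdgeR and DESeq2 called no gene in any region for this comparison, and 571, 681 and 639 genes had an unadjusted edgeR p under 0.05 in cerebellum, cortex and hippocampus. An edgeR fit of these groups alone called 15 genes in the hippocampus, no chain among them. The naive 18-month mice also enter the age comparison above, and the PBS 18-month mice the plasma comparison that follows, so these values are not independent.

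Plasma given for 7 days at 18 months was set against PBS, which is the comparison the study turns on. All 12 values of the chains, over 3 regions and the second hippocampus experiment, were positive, from 0.04 to 0.34 on the log2 scale, and none was called. Chains and regions of the same mice are not independent, here and in the other counts of signs. Each chain in the cerebellum changed sign in 1 or 2 of the fits that left out a single library. In the cerebellum the changes were 0.11 ± 0.14, 0.07 ± 0.10 and 0.04 ± 0.13 for C1qa, C1qb and C1qc (SE), with 95% intervals of -0.16 to 0.38, -0.13 to 0.27 and -0.22 to 0.30. In the cortex C1qb was 60.7, 60.4, 63.6, 64.1 and 50.2 CPM after plasma and 52.4, 55.4, 50.1 and 53.2 CPM after PBS (0.19 ± 0.09, edgeR adjusted p = 1). Of those 5 plasma libraries 4 lay above all PBS libraries and 1, that of mouse 13, lay within them.

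In the first experiment the title number shared by both arms held 2 plasma mice (10 and 13) and 1 PBS mouse (11). These were too few for a value of their own, and leaving them out gave no call. The remaining plasma and PBS mice shared no title number, so that fit cannot tell treatment apart from it. In the hippocampus of the first experiment C1qa changed by 0.17 ± 0.09, C1qb by 0.10 ± 0.09 and C1qc by 0.12 ± 0.13. In that of the second experiment the changes were 0.19 ± 0.12, 0.26 ± 0.10 and 0.34 ± 0.11. C1qc there was 35.8, 40.7, 41.1, 52.3 and 48.0 CPM after plasma and 39.0, 33.9, 39.5 and 29.4 CPM after PBS, which overlap (edgeR adjusted p = 0.602). No groups of this comparison were apart for any chain, beside 0.611%, 0.783% and 0.509% of genes apart and higher in cerebellum, cortex and hippocampus, and 0.66% in the second experiment. EdgeR and DESeq2 called no gene in the 3 regions of the first experiment, and 696, 762 and 440 genes had an unadjusted edgeR p under 0.05 in cerebellum, cortex and hippocampus. In the second experiment edgeR also called 0 of 17126 genes and DESeq2 called 21, with 1363 genes at an unadjusted edgeR p under 0.05.

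At 22 months plasma against PBS gave values from -0.04 to 0.14, of which 7 of 9 were positive. The plasma mice all carried the same title number, which only a single PBS mouse shared, so treatment can hardly be told apart from it. The widest interval was that of C1qa in the cerebellum, -0.19 to 0.40. In the cerebellum C1qa was 29.6, 31.8 and 33.5 CPM after plasma and 27.8, 33.8 and 28.4 CPM after PBS, which overlap. EdgeR called no chain and no gene, while 392, 1059 and 304 genes had an unadjusted edgeR p under 0.05 in cerebellum, cortex and hippocampus. DESeq2 called 1 gene in the hippocampus, no chain, and none in the other regions, and an edgeR fit of these groups alone called 3 genes in the cerebellum, again no chain.

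The longer course, 24 days of plasma against 24 days of PBS, was compared in the same way. All 9 values were negative, from -0.28 to -0.07, and none was called. C1qb in the cortex was 49.1, 50.1 and 56.9 CPM after long plasma and 69.5, 71.6, 55.5 and 59.0 CPM after long PBS, overlapping through mouse 27 (-0.28 ± 0.10, edgeR adjusted p = 1). C1qa in the cerebellum was 30.6, 27.2 and 26.1 CPM against 43.3, 29.2, 28.2 and 32.9 CPM (-0.24 ± 0.14, edgeR adjusted p = 0.787). No groups were apart for any chain, beside 2.67%, 4.32% and 1.58% of genes apart and lower in cerebellum, cortex and hippocampus. EdgeR and DESeq2 called no gene, and 1147, 660 and 706 genes had an unadjusted edgeR p under 0.05. The long plasma and long PBS groups shared no title number, so treatment cannot be told apart from it. The 7-day and 24-day courses differ in age, duration and title number, and the difference between them was not tested.

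**Figure D3:**
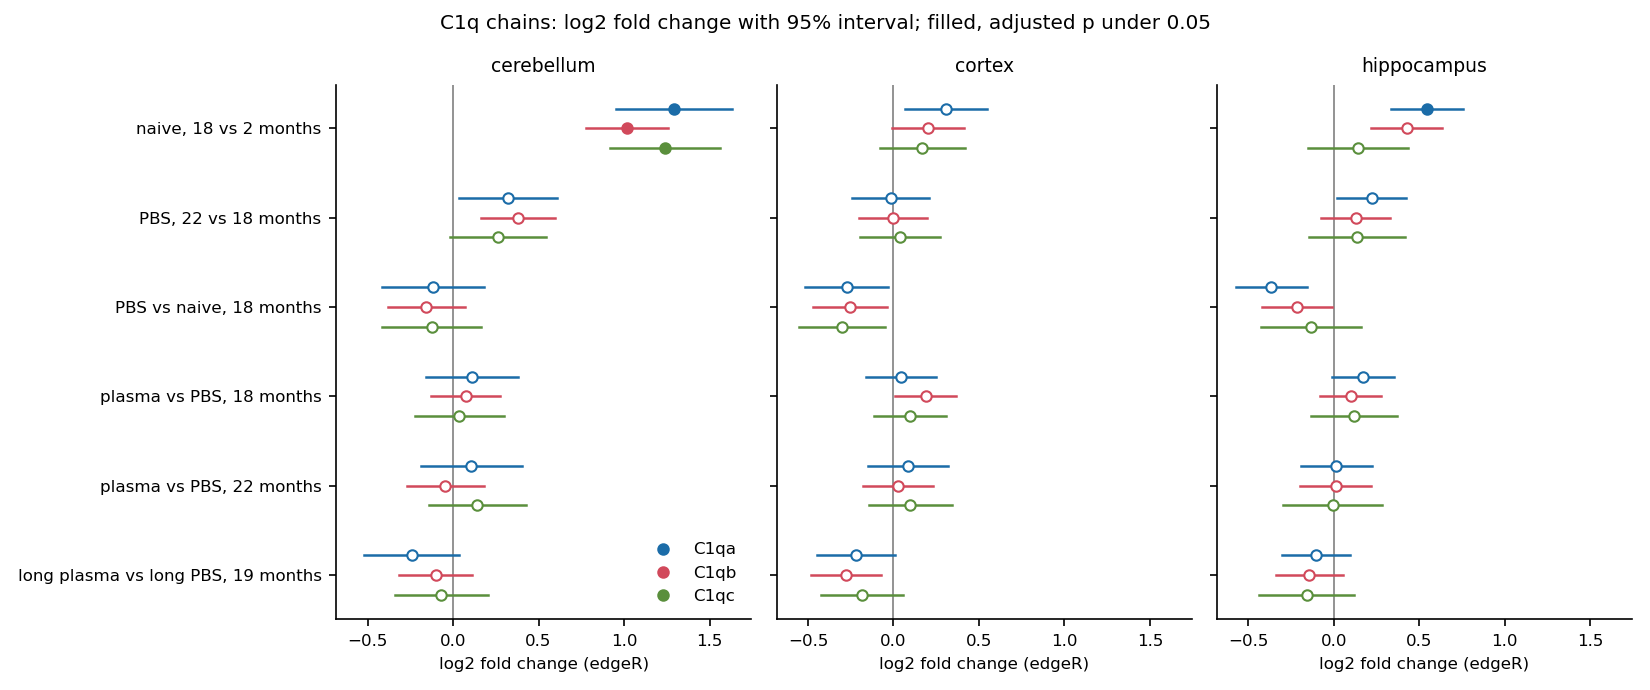
Log2 fold change of each chain (points; bars, 95% interval) in 6 comparisons (y axis) by region; filled points passed an edgeR adjusted p under 0.05. The 4 filled points are the 3 chains in the naive cerebellum and C1qa in the naive hippocampus, and the 3 plasma comparisons have none.

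The ratios between the chains do not depend on how a library is scaled. Over all 96 libraries the ratio of counts of C1qb to C1qa had a median of 1.55 (0.978 to 2.32), that of C1qc to C1qa a median of 1.00 (0.654 to 1.5) and that of C1qc to C1qb a median of 0.643 (0.459 to 0.973). C1qa had more counts than C1qc in 46 of 96 libraries, so these counts were close to even. The ratio of C1qc to C1qa was higher in cortex than in cerebellum in 24 of 29 mice, with means of 1.09 ± 0.102 and 0.951 ± 0.126 (SD). The paired log2 difference was 0.20 ± 0.05 (SE), with p = 0.00032 in a two-sided permutation test by sign flips within mice and 0.00288 after Benjamini-Hochberg adjustment over 9 tests. The other 8 region differences did not pass; the nearest was C1qb to C1qa in cortex against cerebellum, higher in 23 of 29 mice (0.13 ± 0.05, adjusted permutation p = 0.0749).

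No ratio passed the adjusted test with age. C1qc to C1qb in the cerebellum had a mean of 0.545 ± 0.0515 at 2 months and 0.638 ± 0.0155 at 18 months (SD, n = 4 and 3), with no overlap. C1qc to C1qa in the hippocampus had a mean of 1.17 ± 0.128 at 2 months and 0.899 ± 0.0441 at 18 months, also with no overlap. Both reached the smallest p of the exact permutation test, 0.0286 of 35 regroupings (two-sided, adjusted p = 0.129 over 9 tests). C1qc to C1qb in the hippocampus had means of 0.733 ± 0.0806 at 2 months and 0.601 ± 0.00283 at 18 months (exact p = 0.0857), and C1qc to C1qa in the cerebellum was 1.02 ± 0.13 and 0.98 ± 0.0755 (exact p = 0.771). Of the 3 ratios only C1qc to C1qb thus had opposite signs in the cerebellum and the hippocampus, a difference that was not tested. C1qb to C1qa was lower at 18 months in both, with means of 1.88 ± 0.369 and 1.54 ± 0.0995 in the cerebellum and 1.61 ± 0.142 and 1.49 ± 0.0787 in the hippocampus (exact p = 0.229 each). Plasma against PBS at 18 months left no ratio past the test in 12 comparisons (lowest exact p = 0.111 of 126 regroupings, all adjusted to 0.96).

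**Figure D4:**
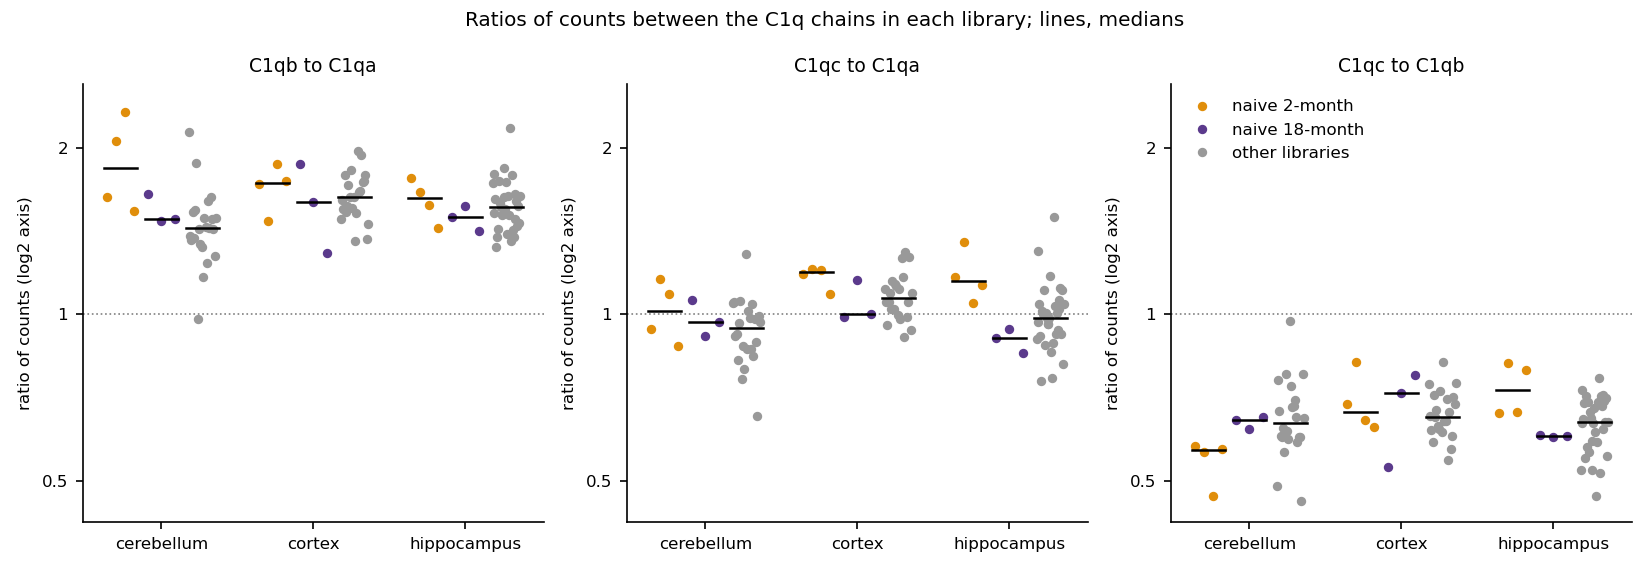
Ratio of counts between each pair of chains in every library (points, log2 axis) by region, with naive 2-month, naive 18-month and all other libraries in separate columns and lines at the medians. C1qc to C1qa is below 1 in all 3 naive 18-month hippocampus libraries and above 1 in all 4 naive 2-month ones.

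Over all libraries of a region the correlation between the chains was highest in the cerebellum. Pearson's r of log2 CPM over 29 libraries was 0.907 to 0.941 between the pairs there, 0.578 to 0.713 in cortex and 0.408 to 0.733 in hippocampus. Without the naive 2-month libraries it was 0.582 to 0.737 in the cerebellum over 25 libraries, 0.592 to 0.694 in the cortex (a similar range) and 0.168 to 0.449 in the hippocampus. These are descriptions, since the libraries share groups and mice. The 10 genes whose pattern was most like the mean log2 CPM of the 3 chains, by the mean r over the 3 regions among 11842 genes, included Ctss (0.803), Fcer1g (0.722), Tyrobp (0.714), Lyz2 (0.714), Trem2 (0.71), Laptm5 (0.676), Cst3 (0.664), H2-K1 (0.653) and Ly86 (0.644). The median over all genes ranked was 0.04. C4b stood at rank 21 with an r of 0.936 (cerebellum), 0.265 (cortex) and 0.56 (hippocampus), and Cx3cr1 at rank 23 with a mean of 0.583. Among the proteins reported to bind C1q, Calr (0.03), Lrp1 (0.04) and C1qbp (0.08) were near that median, while the engulfment receptor Megf10 (0.20) and the inhibitory receptor Lair1 (0.43, rank 116) were above it.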

How the data were processed

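RNA was isolated with RNeasy from homogenized tissue, made into cDNA by Smart-Seq2 and into libraries with Nextera XT, without strand, per the labels' protocols. The authors deposited whole-number counts per gene and library, and the submitters' processing notes name Trim Galore 0.3.7, STAR 2.5.3a, DESeq2 and GRCm38; the counting tool is not given in the sources used here. No column lacked a sample. Each library's precision is limited by its depth, 851288 to 23768385 counts.

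Counts were tested with edgeR 4.0.16 (TMM, filterByExpr, quasi-likelihood), 1 fit per region over its 29 libraries of the first experiment, 1 for the second experiment and 1 over all 87 libraries for regions and interactions; p-values were adjusted by Benjamini-Hochberg over all genes tested, with a threshold of 0.05. Alternatives were DESeq2 1.42.0, RLE size factors, no filter, the compared groups alone, leaving out libraries of low depth (under 2500000 counts), of low regional markers or one at a time, and the mouse as a block. Ratios and shares were tested by permutation on log2 values (0.5 added to each count of a ratio). The members and gene lists were chosen with earlier results of these data known. The interaction for 22 against 18 months was added after seeing the data. Named beside the chains are up to 4 genes per list past the threshold with a mean of at least 5 CPM, 8 followed genes (Cx3cr1, Tmem119, P2ry12, Spi1, C1ra, C1s1, C3, C4b) and the 10 most alike in pattern; 1 gene that this rule names is not reported here.

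Replicates are different mice; of 136 pairs of replicates none was identical. The same mouse gave 3 regions, so those samples are paired by the labels; over 29 mice the deviations from group means had a median correlation of 0.0929 (cerebellum with cortex), 0.0371 (cerebellum with hippocampus) and 0.0867 (cortex with hippocampus). The edgeR step was also tested on simulated counts with known changes. Promoter windows came from RefSeq (GRCm38.p6), which matched C1qb and C1qc, and exon lengths from GENCODE vM21; whether the authors counted on that annotation is not given in the sources used here.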

Additional observations from a re-analysis of the deposited data

Results flagged for a closer look

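Of 84 sets of 4 or 5 libraries tested for a sample far from the others (Dixon's test), 5 were flagged, where chance flags about 1 in 20. In the cerebellum plasma mouse 1 of 18 months had 36.2 CPM of C1qa, and the other 4 had 21.6 to 25.3 CPM. In the cortex plasma mouse 13 of 18 months had 50.2 CPM of C1qb, and the other 4 had 60.4 to 64.1 CPM. In the hippocampus plasma mouse 4 of 18 months had a ratio of C1qc to C1qa of 1.5, and the others 0.886 to 1.04; that library holds 1659775 counts, with 81 counts of C1qc and 54 of C1qa. In the cortex long PBS mouse 28 had a ratio of C1qc to C1qb of 0.725, and the others 0.611 to 0.627. In the cerebellum naive mouse 17 of 2 months had a ratio of C1qc to C1qb of 0.468 from 37 and 79 counts, and the others 0.564 to 0.578.

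The age change of the chains in naive mice differed between regions by the edgeR interaction test: by -0.99 for C1qa, -0.82 for C1qb and -1.07 for C1qc in cortex minus cerebellum, and by -1.10 for C1qc in hippocampus minus cerebellum (log2 scale, adjusted p = 0.0182, 0.0182, 0.0267 and 0.0163). Each of these calls was lost in some of the fits that left out a single library, as given above.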

How the results depend on the processing

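Of 603 alternative values of 126 results that leave out no single library, 577 kept their direction and their side of the threshold (for counts of genes, stayed within 1.5 times). The 3 calls in the naive cerebellum held under the 6 alternatives run in that region's fit and without any 1 library; the block was run over all regions only. With the mouse as a replicate block the chains kept all calls between regions; the interaction of C1qa in cortex minus cerebellum, for example, was -1.01 with the block and also called. C1qa in the naive hippocampus was not called without the count filter (0.55) or in the naive groups alone (0.53), and C1qc in hippocampus minus cerebellum was not called without libraries of low regional markers (-0.86). C1qb in the PBS cerebellum at 22 against 18 months was called without the filter and with those groups alone (0.39 each). Differences that were near 0 changed sign: C1qb in the PBS cortex without the filter (0.0064) and without libraries of low depth (0.0025), C1qc there without libraries of low regional markers (-0.078), C1qc after long plasma in the cerebellum without low depth (7.94e-05), and C1qc in hippocampus minus cortex without low depth (0.027) or low regional markers (0.14). In naive mice C1s1 in the cortex changed sign by DESeq2 (-0.021) and without low regional markers (-0.010), C3 in the cortex by DESeq2 (0.10), and C1ra in the hippocampus without low regional markers (-0.021).

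Among log2 ratios, those that changed sign without libraries of low depth were C1qc to C1qb with age in the cortex (0.12), with plasma in the cerebellum C1qb to C1qa (0.046) and C1qc to C1qb (-0.10), and C1qc to C1qa with plasma in the hippocampus (-0.12). Without the mice that had such a library, C1qc to C1qb in hippocampus against cerebellum turned to -0.023, and hippocampus against cortex passed for C1qc to C1qa (-0.14, adjusted permutation p = 0.0150) and C1qc to C1qb (-0.11, adjusted permutation p = 0.0340). C1qc in the hippocampus relative to Cx3cr1 alone was higher with age (0.044), against lower relative to the 12 genes. The cause of these changes was not tested.

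The genes called in the naive cortex were 21, and 32 by DESeq2, 5 in the groups alone, and 13 without libraries of low depth and 13 without those of low regional markers. In the naive hippocampus they were 13, and 24 by DESeq2, 0 in the groups alone (646 at an unadjusted edgeR p under 0.05) and 8 without low depth. For 22 against 18 months in the cerebellum they were 27, and 120 by DESeq2, 15 with RLE size factors, 312 without the filter, 483 in the groups alone, 1 without low depth and 11 without low regional markers. In the cortex the 1 gene became 49 by DESeq2, 10 without the filter and 5 without low regional markers, and in the hippocampus the groups alone gave 15. For the difference between regions in that change the genes called were 2, 140 and 122 (cortex minus cerebellum, hippocampus minus cerebellum, hippocampus minus cortex), and over the alternatives 0 to 34, 49 to 203 and 4 to 188, the last falling to 4 without libraries of low regional markers. For the change with age in naive mice those without low regional markers were 16 against 8 in cortex minus cerebellum and 18 against 10 in hippocampus minus cerebellum.

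Leaving out 1 library at a time gave 711 values, of which 631 kept direction and side, 32 lost a call and 48 changed sign, the latter all among differences that were not called. C1qa in the naive hippocampus ran from 0.47 to 0.64. Cortex minus cerebellum ran from -1.08 to -0.86 for C1qa, from -0.92 to -0.71 for C1qb and from -1.16 to -0.99 for C1qc, and hippocampus minus cerebellum from -1.21 to -0.99 for C1qc. Ranges that crossed 0 were, in the cerebellum, -0.21 to 0.022 for C1qa in PBS against naive mice, -0.061 to 0.20 (C1qa), -0.0092 to 0.15 (C1qb) and -0.097 to 0.14 (C1qc) for plasma at 18 months, -0.19 to 0.052 for C1qb with plasma at 22 months and -0.23 to 0.032 for C1qc with long plasma. In the cortex they were -0.13 to 0.075 (C1qa), -0.075 to 0.046 (C1qb) and -0.077 to 0.13 (C1qc) for 22 against 18 months, and -0.0096 to 0.19 (C1qa) and -0.022 to 0.10 (C1qb) for plasma at 22 months. In the hippocampus they were -0.033 to 0.043 (C1qa), -0.019 to 0.042 (C1qb) and -0.073 to 0.082 (C1qc) for plasma at 22 months. C1qc in hippocampus minus cortex ran from -0.14 to 0.085. Of the other named genes in naive mice, P2ry12 (-0.11 to 0.049), C1s1 (-0.69 to 0.31) and C3 (-2.53 to 0.29) in the cortex and C1s1 in the hippocampus (-0.33 to 0.85) crossed 0. Log2 ratios that crossed 0 with age were C1qc to C1qa in the cerebellum (-0.11 to 0.021), and C1qb to C1qa (-0.24 to 0.026) and C1qc to C1qb (-0.16 to 0.12) in the cortex. With plasma at 18 months they were C1qb to C1qa (-0.16 to 0.046) and C1qc to C1qb (-0.10 to 0.10) in the cerebellum, C1qc to C1qa in the cortex (-0.022 to 0.10), and C1qb to C1qa (-0.14 to 0.030), C1qc to C1qa (-0.12 to 0.11) and C1qc to C1qb (-0.046 to 0.12) in the hippocampus. Depth limits the precision of the ratios, and 7 libraries hold fewer than 2500000 counts.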
